A study of Mus musculus with 6 samples.

Results

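The genes described here are the 5 NF-kB subunits and 5 proteins that hold the pathway in check or feed into it, 10 genes of the 24885 rows in the deposited table. They were chosen by name: Nfkb1, Nfkb2, Rel, Rela and Relb for the subunits, Nfkbia for the inhibitor IkB alpha, the deubiquitinase genes Tnfaip3 and Cyld, and the adaptor genes Traf1 and Traf3. Cyld, Tnfaip3 and Traf3 have been reported as targets of the miR-17~92 microRNA cluster. RNA was measured by 3' RNA-seq, which reads the ends of polyadenylated transcripts, in mouse lymphoma cells driven by the Eµ-Myc transgene, in which Myc is active in the B lineage. Both groups carried Eµ-Myc, the tamoxifen-inducible recombinase Cre-ERT2 and floxed alleles of miR-17~92, and both were grown for 48 hours on irradiated Ink4a-null fibroblast feeder cells. The del group (3 libraries) had been treated with 250 nM 4-hydroxytamoxifen for 4 days to delete the cluster and then subcloned, and the fl group (3 libraries) kept the floxed cluster. Deletion, drug treatment and subcloning cannot be told apart in this design. Nothing in the labels tells if the 3 libraries of a group are separate cultures or clones, and p-values therefore measure only the spread between these libraries, which may be technical.

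NF-kB proteins act as dimers of the 5 subunits and are held inactive by IkB proteins such as IkB alpha. In the canonical arm, receptors of the TNF, Toll-like and antigen receptor families recruit TRAF adaptors and ubiquitin ligases, the IKK kinase complex marks IkB alpha for destruction, and RELA and REL dimers with p50 enter the nucleus. In the noncanonical arm, which B cells use downstream of BAFF receptor and CD40, the kinase NIK (gene Map3k14) drives processing of the Nfkb2 product p100 to p52, the partner of RELB, and TRAF3 keeps this arm off by presenting NIK for degradation. A20 (Tnfaip3) and CYLD remove or edit the ubiquitin chains that carry the signal. Nfkbia, Tnfaip3, Nfkb2, Relb and Traf1 are known targets of NF-kB itself.

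The cluster makes 6 microRNAs that belong to 4 seed families, shown because their seeds define the sites looked for in the 10 genes. The seed, bases 2 to 8, is in capitals, and the sequences are those of RefSeq on GRCm38, from chromosome 14.
miR-17-5p: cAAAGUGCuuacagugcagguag
miR-20a-5p: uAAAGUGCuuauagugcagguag
miR-18a-5p: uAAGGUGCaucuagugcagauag
miR-19a-3p: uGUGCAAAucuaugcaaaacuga
miR-19b-3p: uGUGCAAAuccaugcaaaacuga
miR-92a-3p: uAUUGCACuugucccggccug

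Matches of these seeds were found in the longest annotated 3' UTR (GENCODE, GRCm38) of 5 of the 10 genes. Of 9712 tested genes with such a UTR, 33.7% held at least 1 match of the 4 families. The 3 reported targets all held matches, and their sites are printed with 8 flanking bases on each side, the match in capitals.
Cyld, miR-19a/b, chr8:88747191-88747213, plus strand: agaagcatTTTGCACtctaggaa
Cyld, miR-17/20a, chr8:88748479-88748501, plus strand: ttttaaagGCACTTTactccttg
Cyld, miR-17/20a, chr8:88749024-88749046, plus strand: ttggggtgGCACTTTgtgagtga
Tnfaip3, miR-18a, chr10:19002060-19002082, minus strand: ggctgtatGCACCTTctagacag
Tnfaip3, miR-19a/b, chr10:19001009-19001031, minus strand: ttgtgaaaTTTGCACagttgtct
Traf3, miR-92a, chr12:111262507-111262529, plus strand: attcaagaGTGCAATcttgtttc
Traf3, miR-19a/b, chr12:111266102-111266124, plus strand: atcttctaTTTGCACacccatag
Only the transcript strand was searched. The match of miR-17 and miR-20a, GCACTTT, was present in 14.7% of the tested genes' UTRs. That of miR-18a, GCACCTT, was in 9.10% of them, that of miR-19a and miR-19b, TTTGCAC, in 13.4%, and that of miR-92a, GTGCAAT, in 7.71%. Rel and Traf1 each held 1 match, both of miR-18a. Nfkb1, Nfkb2, Rela, Relb and Nfkbia held none in UTRs of 336 to 714 bases. The UTRs of Rel (5418 bases), Traf3 (5093 bases) and Cyld (4932 bases) were each longer than those of at least 95.5% of tested genes, and long UTRs hold any 7-base motif more often.

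**Figure D1:**
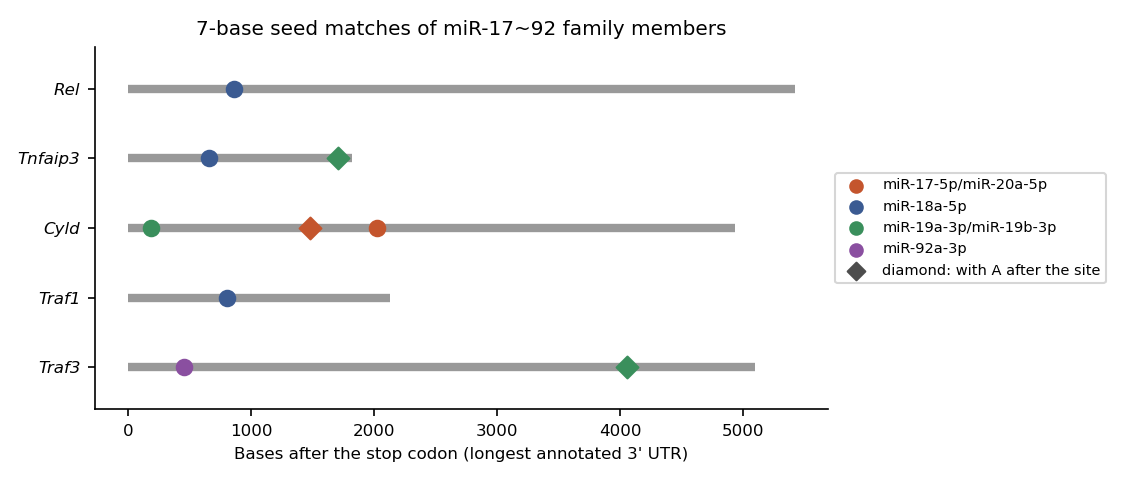
Positions of the 7-base seed matches, in bases after the stop codon (x axis), along the longest annotated 3' UTR of the 5 genes that hold one (grey bars). Colour gives the microRNA family and a diamond marks a match followed by A. Cyld holds 3 matches, Tnfaip3 and Traf3 hold 2 each, and Rel and Traf1 hold 1 each.

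Total counts were 2121796 to 3738720 in the del libraries and 6554423 to 9580630 in the fl libraries, so that depth and group go together. CPM stands for counts relative to TMM-scaled library totals. The host transcript Mir17hg, whose 3' tag lies past the cluster and so does not check the deletion, was at 167, 152 and 206 CPM in the del libraries and at 252, 263 and 262 CPM in the fl libraries. The labelled cell type was checked with 13 B cell marker genes, of which 12 were tested and all 12 rose in del. The untested gene, Ms4a1, had 1 count over the del libraries and 2 over the fl libraries. Summed, the 13 genes ranged over 1179 to 1375 CPM in the del libraries and over 95.4 to 119 CPM in the fl libraries. In the fl libraries the B cell transcription factor gene Ebf1 was at 0.229, 0.560 and 0 CPM. The myeloid list, with 7 genes higher and 2 lower among 9 tested, summed to 3042 to 3857 CPM in del and 432 to 477 CPM in fl, with Mpo at 0 in both groups. Most of its fl sum was Fcer1g, with a mean of 391 CPM in fl and 599 CPM in del. Cybb was the largest part of its del sum, with a mean of 1470 CPM in del and 1.97 CPM in fl. Its lower genes were Cd14, with means of 1.95 CPM in del and 3.93 CPM in fl, and Elane, with 2.35 and 5.08 CPM. The 3 tested epithelial markers fell, and the list summed to 0.474 to 1.32 CPM in del and 371 to 411 CPM in fl. Most of the fl sum was Epcam (mean 170 CPM) and Krt18 (mean 214 CPM). Krt19 had 2 counts over the del libraries and 1 over the fl libraries, and Cdh1 was at 0 in both groups. Markers of fibroblasts, the feeder cell type, summed to 17.1 to 37.4 CPM in del and 2.06 to 9.24 CPM in fl, with 3 of 4 tested genes higher in del and Lum at 0 in both groups. T and NK cell markers summed to 99.5 to 121 CPM in del and 38.6 to 42.8 CPM in fl. Of 3 tested genes 1 was higher and 2 were lower in del, and Cd3e, Cd8a and Nkg7 were at 0 in both groups. Most of the del sum was the gene that was higher, Cd2, with a mean of 105 CPM in del and 13.1 CPM in fl. The lower genes were Cd5, with means of 3.30 CPM in del and 23.3 CPM in fl, and Lck, with 0 and 3.24 CPM. These markers move with the groups and so with every result below, and their part in those results was not tested. Fewer cells of a type and less RNA per cell cannot be told apart in bulk RNA.

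Of the 10 genes, 4 rose in del, 2 fell, 3 did not pass the test and 1 had too few counts to be tested. Rel, Nfkbia, Cyld and Traf3 rose, and Nfkb2 and Traf1 fell (edgeR's quasi-likelihood test, Benjamini-Hochberg adjusted p under 0.05 over 10260 genes). This makes 6 of 9 tested genes called, where 65.1% of all tested genes were called, 32.5% as higher and 32.6% as lower in del. The share is near that of all genes and is no result about the pathway. With upper-quartile scaling, which moved the median of all genes by -0.13, 4 rose and 4 fell. The median log2 fold change, del minus fl, was 0.04 over the 9 genes and -0.0035 over all genes tested. The 3 del and 3 fl values did not overlap for 8 of the 9 tested genes, where 69.9% of all tested genes did not overlap.

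**Figure D2:**
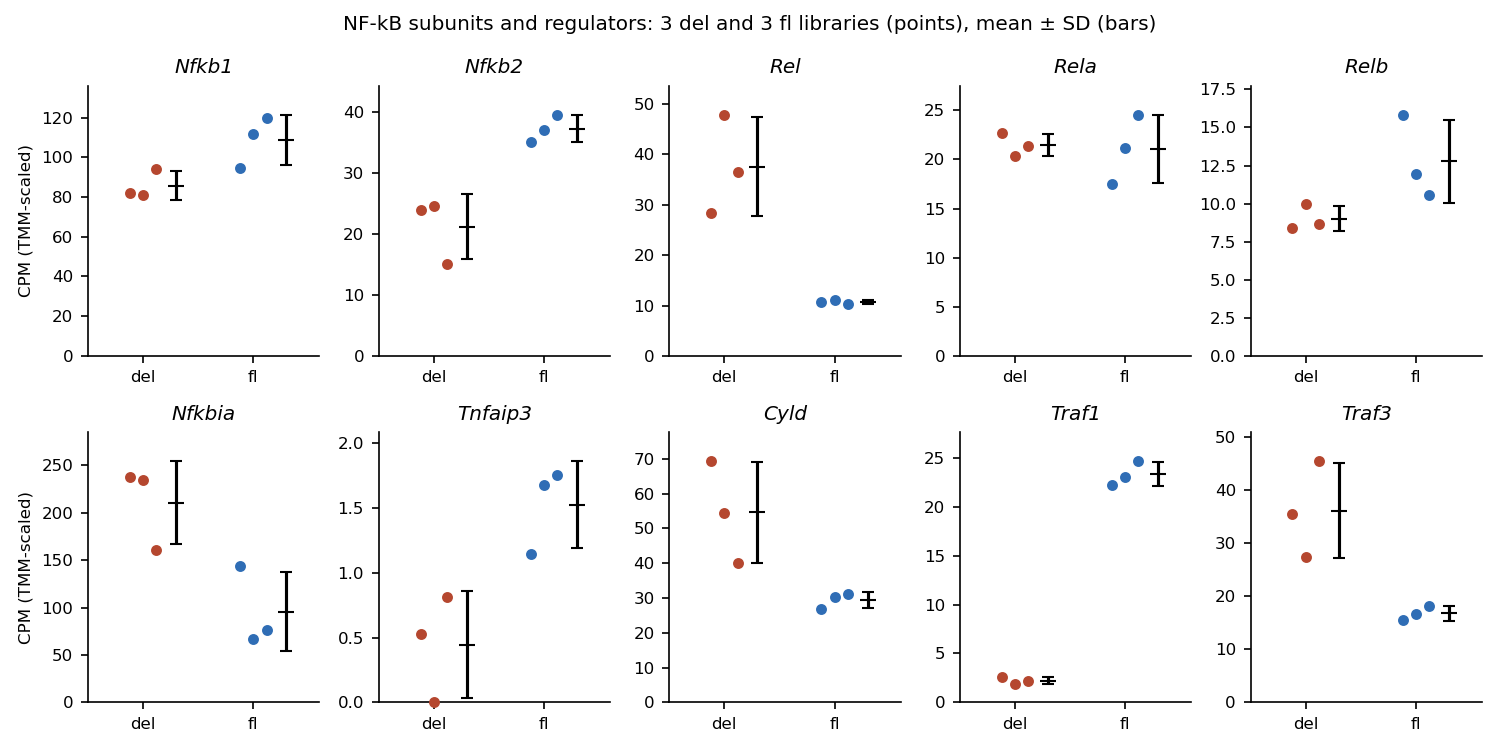
Level of each gene in TMM-scaled CPM (y axes, each from 0) in the 3 del and 3 fl libraries (points), with mean ± SD beside them (bars). Rel, Nfkbia, Cyld and Traf3 are higher in every del library, Traf1 lies near 2 CPM in del and above 22 CPM in fl, and Rela overlaps between the groups.

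Among the subunits, Rel was the 1 that rose. Rel encodes c-Rel, the subunit most tied to lymphoid cells. It was at 28.4, 47.8 and 36.5 CPM in the del libraries and at 10.7, 11.2 and 10.3 CPM in the fl libraries. Every del library was above every fl library, and the del libraries were the more widely spread. The log2 fold change was 1.78 ± 0.20 (standard error), a 3.44-fold rise (adjusted p = 5.29e-05), and 15.4% of all tested genes differed by at least as much in either direction.

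Nfkb2, which encodes p100 and its product p52, fell. It was at 24.0, 24.6 and 15.1 CPM in the del libraries and at 35.2, 37.2 and 39.6 CPM in the fl libraries, with del replicate 3 the lowest of the 6. The log2 fold change was -0.83 ± 0.19 (adjusted p = 0.00374). With all libraries thinned to the shallowest total it missed the threshold (-0.62, adjusted p = 0.0584). The gene Psd overlaps Nfkb2 on the opposite strand. Psd had 1 count over the del libraries and 39 over the fl libraries, and the strand setting of the counting was not stated, so that reads of the 2 genes cannot be told apart.

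The other 3 subunits did not pass the test. Nfkb1, which encodes p105 and its product p50, was at 81.9, 81.0 and 94.3 CPM in the del libraries and at 94.8, 112 and 120 CPM in the fl libraries. Its groups just failed to overlap, and the log2 fold change was -0.34 ± 0.14 (adjusted p = 0.0633). It passed without fl replicate 1 (-0.43, adjusted p = 0.0337), without del replicate 3 (-0.42, adjusted p = 0.0449) and with upper-quartile scaling (-0.47, adjusted p = 0.0202). Relb, the partner of p52, was at 8.43, 9.95 and 8.65 CPM in the del libraries and at 15.8, 12.0 and 10.6 CPM in the fl libraries, with the 6 values not overlapping (log2 fold change -0.53 ± 0.21, adjusted p = 0.0515). It passed without fl replicate 3 (-0.64, adjusted p = 0.0295), with upper-quartile scaling (-0.65, adjusted p = 0.0171), with no count filter (-0.58, adjusted p = 0.0364) and with a stricter filter of 10 CPM in at least 3 libraries (-0.53, adjusted p = 0.0496). Rela, the p65 subunit of the canonical heterodimer, was at 22.6, 20.4 and 21.4 CPM in del and at 17.5, 21.1 and 24.5 CPM in fl. The groups overlapped, and its log2 fold change of 0.04 ± 0.16 (adjusted p = 0.851) turned negative without fl replicate 1 (-0.085), without del replicate 1 (-0.0085), with no count filter (-0.0098) and with upper-quartile scaling (-0.094).

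**Figure D3:**
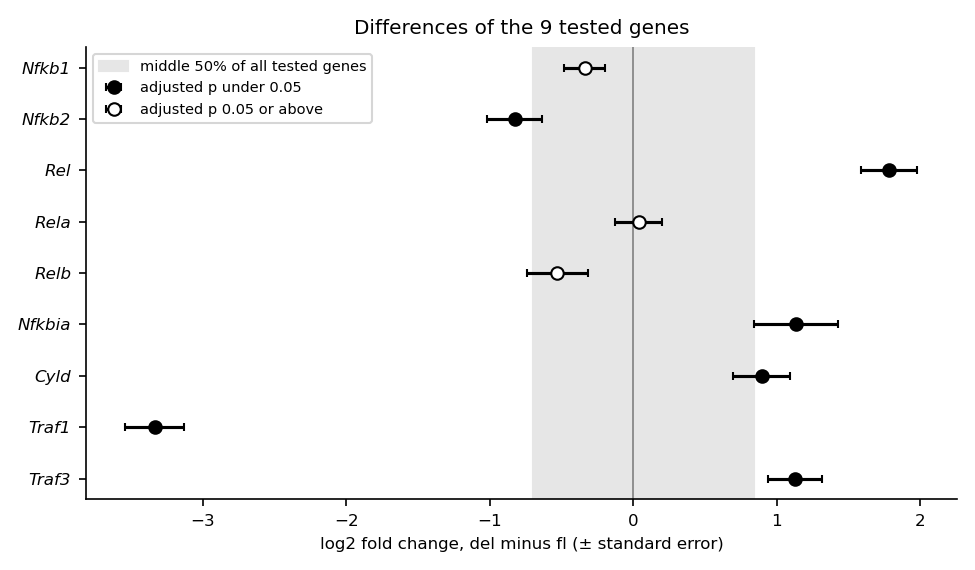
Log2 fold change, del minus fl, with its standard error for the 9 tested genes (x axis). Filled points passed the adjusted p threshold of 0.05 and open points did not. The grey band spans the middle 50% of all tested genes, from -0.70 to 0.84. Traf1 at -3.34 and Rel at 1.78 lie farthest from 0, and Rela at 0.04 lies nearest to it.

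The share of each subunit in the summed counts of the 5 does not depend on how libraries are scaled. The shares of a library add up to a whole, so a larger share of Rel must lower the sum of the others. Differences in the shares are therefore not separate results. Rel made up 17.2%, 26.0% and 20.7% of the subunit counts in the del libraries and 6.13%, 5.80% and 5.02% in the fl libraries. Its mean share was 21.3% ± 4.45 in del and 5.65% ± 0.569 in fl (SD, n = 3 each). Nfkb2 made up 12.2% ± 3.13 in del and 19.6% ± 0.536 in fl, and Nfkb1 49.1% ± 4.79 in del and 56.9% ± 2.15 in fl (SD, n = 3 each). In these 3 subunits the groups did not overlap, and the exact two-sided permutation test gave p = 0.1 (0.167 adjusted over the 5 subunits), the smallest p that 3 against 3 libraries allow. The shares of Rela (12.3% ± 1.31 in del, 11.0% ± 0.947 in fl) and Relb (5.14% ± 0.252 in del, 6.82% ± 2.04 in fl) overlapped between the groups, each with an exact permutation p of 0.2 (SD, n = 3 each). The 5 subunits together were at 175 ± 9.24 CPM in del and 191 ± 15.4 CPM in fl, with overlapping values. The subunit counts behind the shares were 388 to 651 per del library and 1395 to 1725 per fl library. Intervals and floors given here cover counting error only, since amplified reads are not independent molecules.

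**Figure D4:**
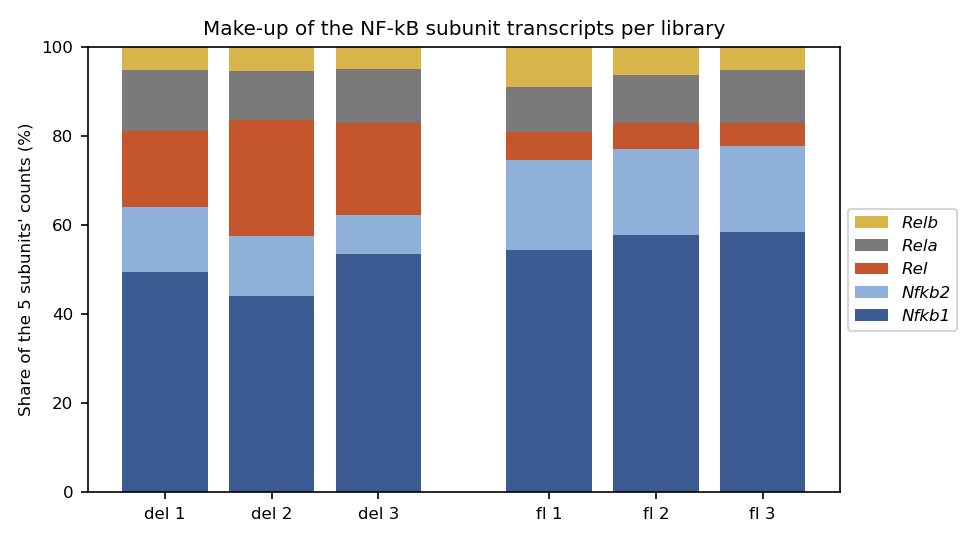
Share of each of the 5 NF-kB subunits in their summed counts (y axis, percent) for the 3 del libraries (left) and the 3 fl libraries (right). The Rel segment takes 17.2% to 26.0% in del and 5.02% to 6.13% in fl, while the Nfkb1 and Nfkb2 segments are smaller in del. Segments of a library add up to a whole and so are bound to each other.

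Nfkbia, the gene of IkB alpha and a fast feedback inhibitor of the canonical arm, rose. It was at 237, 234 and 161 CPM in the del libraries and at 144, 67.4 and 75.9 CPM in the fl libraries. The fl libraries were uneven, with fl replicate 1 close to del replicate 3, and the groups did not overlap. The log2 fold change was 1.14 ± 0.29 (adjusted p = 0.00786), and 1.55 without fl replicate 1 (adjusted p = 0.000200).

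Within a library, the log2 ratio of Nfkbia to Rela counts was 3.27 ± 0.322 in del and 2.11 ± 0.797 in fl (SD, n = 3 each), and fl replicate 1 at 3.03 lay above del replicate 3 at 2.91. That of Nfkbia to Rel was 2.50 ± 0.495 in del and 3.08 ± 0.603 in fl (SD, n = 3 each), again with overlap. The rise of Nfkbia therefore did not separate the groups in its ratio to either subunit.

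Of the deubiquitinase genes, both reported targets, Cyld rose and Tnfaip3 had too few counts for the test. Cyld was at 69.3, 54.5 and 40.0 CPM in the del libraries and at 26.7, 30.2 and 31.1 CPM in the fl libraries. All del values were above all fl values, and the log2 fold change was 0.90 ± 0.20 (adjusted p = 0.00312), with 42.1% of all tested genes differing by at least as much. Tnfaip3, the A20 gene, was hardly read. It had 2, 0 and 3 counts in the del libraries and 10, 15 and 12 counts in the fl libraries, or 0.527, 0 and 0.811 CPM in del and 1.15, 1.68 and 1.76 CPM in fl. It did not pass the filter on low counts. Over the summed counts of 5 in del and 37 in fl, the ratio of del to fl was 0.344 (exact 95% counting interval 0.106 to 0.878), which compares these libraries' reads and not the conditions. With no count filter its log2 fold change was -1.56 ± 0.65 and missed the threshold (adjusted p = 0.0543).

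The adaptor genes moved apart. Traf1, which encodes a TRAF protein without the ring domain of the others, was at 2.63, 1.89 and 2.16 CPM in the del libraries and at 22.2, 23.1 and 24.6 CPM in the fl libraries. Both groups were tight, and the log2 fold change of -3.34 ± 0.20 was a 10.1-fold fall (adjusted p = 1.71e-06) that 6.13% of all tested genes matched in size. Traf3, the reported target, was at 35.6, 27.5 and 45.4 CPM in the del libraries and at 15.5, 16.7 and 18.2 CPM in the fl libraries. It rose by 1.13 ± 0.19 on the log2 scale (adjusted p = 0.000607), with 31.7% of all tested genes differing by at least as much. The gene 4930595D18Rik lies on the opposite strand across part of Traf3, but none of the deposited counts were matched to it. Gm43430 lies on the same strand within Nfkb1, and whether it had counts was not looked up. How reads in these stretches were counted is not known. Of the 5 genes with a seed match, Rel, Cyld and Traf3 rose, Traf1 fell and Tnfaip3 was not tested. Of those without a match, Nfkbia rose, Nfkb2 fell and Nfkb1, Rela and Relb did not pass. Called genes went both ways with and without a match, where 65.1% of all tested genes were called. These genes are few, and a link between a seed match and a direction was not tested.

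Since several of the 10 genes are targets of NF-kB, their promoters (RefSeq, GRCm38, 250 bases before to 50 after the start) were searched on both strands for the 10-base kappaB consensus, the site NF-kB dimers bind. The 8 genes with an entry had 11 promoters, 3 of them of Nfkb2, and 8 of the 11 held a match, where 4.51% of all 32851 promoters held one. Windows of Nfkb2 overlapped in part and shared a match, so its promoters are not separate. By gene, 6 of the 8 held a match, and the share by gene over all genes was not taken. Matches stood in Rel, Nfkb2, Nfkbia, Tnfaip3, Cyld and Traf3. Rela and Traf1 had none in this window, and Nfkb1 and Relb had no entry. The promoters of 3 genes are shown, of the subunit gene that rose, the subunit gene that fell and the inhibitor gene, each 5' to 3' on the gene's strand with the kappaB matches in capitals.
Rel, chr11:23770920-23771219, minus strand: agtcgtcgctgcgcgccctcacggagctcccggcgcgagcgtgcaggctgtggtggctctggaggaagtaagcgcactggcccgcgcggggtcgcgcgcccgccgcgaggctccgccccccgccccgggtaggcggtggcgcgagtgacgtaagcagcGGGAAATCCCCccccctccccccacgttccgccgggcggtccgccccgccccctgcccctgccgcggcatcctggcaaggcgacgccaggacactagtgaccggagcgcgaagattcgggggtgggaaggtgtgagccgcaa
Nfkb2, chr19:46304487-46304786, plus strand: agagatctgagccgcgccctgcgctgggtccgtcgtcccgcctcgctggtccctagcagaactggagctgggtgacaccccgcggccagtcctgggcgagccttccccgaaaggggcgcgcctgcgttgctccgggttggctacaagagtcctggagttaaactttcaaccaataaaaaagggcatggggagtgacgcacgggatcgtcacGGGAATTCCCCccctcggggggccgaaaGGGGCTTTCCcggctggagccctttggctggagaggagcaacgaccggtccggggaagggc
Nfkbia, chr12:55492598-55492897, minus strand: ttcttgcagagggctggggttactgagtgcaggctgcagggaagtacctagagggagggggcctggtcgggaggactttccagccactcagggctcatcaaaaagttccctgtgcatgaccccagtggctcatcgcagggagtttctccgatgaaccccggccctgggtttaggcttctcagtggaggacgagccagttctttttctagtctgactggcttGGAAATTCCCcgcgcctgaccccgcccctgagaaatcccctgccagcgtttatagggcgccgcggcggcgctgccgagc
The match began 29 bases before the start of Nfkbia, and overlapping matches began 92 and 91 bases before that of Rel and 39 and 38 bases before this start of Nfkb2, which had another at 11 bases. The genes that hold a match include 4 that rose, 1 that fell and Tnfaip3, which was not tested. Of the genes without a match, Traf1 fell and Rela did not pass. Over all tested genes 65.1% were called, and a link between a match and a direction was not tested.

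The rest of the pathway was followed in 6 lists of 96 genes, of which 86 were tested, 39 rose, 20 fell and 27 did not pass, or 68.6% called against 65.1% of all tested genes. The median log2 fold change was 0.40 over the 86 genes. Of 14 tested IKK and upstream kinase genes, 6 rose and 1 fell, with a median of 0.36, or 50% called. Ripk1, a kinase scaffold of the TNF receptor complex, rose by 1.61 ± 0.16 on the log2 scale (adjusted p = 3.32e-05), and Tab2, which couples ubiquitin chains to the kinase TAK1, by 1.29 ± 0.18. Irak4, a kinase of Toll-like receptor signalling, rose by 0.96 ± 0.16. Ikbkg, the NEMO subunit of IKK, rose by 0.51 ± 0.16 (adjusted p = 0.0199), a call that was lost without fl replicate 1 (adjusted p = 0.0701), fl replicate 2 (0.0564) or del replicate 3 (0.0774), in thinned libraries (0.0535) or with upper-quartile scaling (0.0785). Map3k8, the TPL2 kinase gene, had 1 count over the del libraries and 76 over the fl libraries, a ratio of 29.8 in favour of fl (exact 95% counting interval 5.19 to 1193). Chuk, which encodes IKK alpha, was at 77.0 ± 10.2 CPM in del and 85.9 ± 20.02 CPM in fl, and Irak1 at 89.5 ± 2.22 CPM in del and 82.9 ± 1.68 CPM in fl (SD, n = 3 each), neither past the threshold. Without del replicate 3 or fl replicate 2, 3 genes of this list rose in place of 6. Without fl replicate 2 or fl replicate 3, Map3k8 did not pass the count filter.

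Of 15 adaptor and ubiquitin ligase genes, 6 rose and 3 fell, with a median of 0.25. That is 60% called, against 65.1% of all tested genes. Traf5, a close relative of Traf3, rose by 2.25 ± 0.27 on the log2 scale and stood at 11.8 ± 2.98 CPM in del and 2.55 ± 0.602 CPM in fl. Prkcb, the kinase that links the B cell receptor to NF-kB, rose by 3.02 ± 0.38 (3.67 without fl replicate 1). Ticam1, the TRIF adaptor gene, fell by 2.27 (standard error 0.28), Tradd, an adaptor of TNF receptor 1, by 1.00 (0.20), and Rbck1, a subunit of the linear ubiquitin ligase, by 0.92 (0.12). Bcl10 (78.6 ± 15.5 CPM in del, 67.5 ± 1.54 CPM in fl) and Birc3 (34.7 ± 1.41 CPM in del, 29.1 ± 2.16 CPM in fl) did not pass (SD, n = 3 each). Outside the naming rule, and with values known, Birc2, a ligase that acts with TRAF3 on NIK, rose by 0.78 ± 0.20 (adjusted p = 0.00619). Traf2 of the same list overlapped between the groups and did not pass (log2 fold change 0.18 ± 0.19, adjusted p = 0.423). Map3k14, the gene of NIK, was at 9.07 ± 0.489 CPM in del and 6.24 ± 0.472 CPM in fl (log2 fold change 0.55 ± 0.18, adjusted p = 0.0247). Its adjusted p was 0.0111 to 0.0791 over the alternatives, and the call was lost without del replicate 1 (0.0745), del replicate 3 (0.0631) or fl replicate 2 (0.0756), with the replicate number as a block (0.0607), with DESeq2 (0.0646), with no count filter (0.0661) and with upper-quartile scaling (0.0791).

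The other IkB genes were split, with 2 of 6 higher and 2 lower, or 66.7% called against 65.1% of all tested genes. Bcl3, a nuclear IkB protein that works with p50 and p52, rose by 1.27 ± 0.26 on the log2 scale, while Nfkbil1 fell by 2.10 (standard error 0.30). Nfkbie (0.53 ± 0.18, adjusted p = 0.0275) and Nfkbib (-0.38 ± 0.14, adjusted p = 0.0367), the IkB epsilon and IkB beta genes, passed narrowly. Nfkbie was not called without del replicate 1 (adjusted p = 0.123), del replicate 2 (0.0558), fl replicate 2 (0.0635) or fl replicate 3 (0.0786), or with upper-quartile scaling (0.0700). Nfkbib was not called without del replicate 2 (0.103), del replicate 3 (0.0737), fl replicate 1 (0.0554), fl replicate 2 (0.105) or fl replicate 3 (0.0739), nor with DESeq2 (0.0775), the replicate number as a block (0.0688) or thinned libraries (0.135). Nfkbid was at 15.3 ± 1.56 CPM in del and 15.0 ± 1.95 CPM in fl, and Nfkbiz at 10.4 ± 1.01 CPM in del and 8.08 ± 2.23 CPM in fl (SD, n = 3 each), neither past the threshold.

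Of 16 A20 partners and other inhibitors, 7 rose and 4 fell, with a median of 0.46. That is 68.8% called, against 65.1% of all tested genes. Tax1bp1, an adaptor that brings A20 to its substrates, was at 506 ± 41.0 CPM in del and 178 ± 30.2 CPM in fl (SD, n = 3 each), a rise of 1.51 ± 0.16 on the log2 scale (adjusted p = 5.03e-05). The A20-binding proteins ABIN2 and ABIN3 are encoded by Tnip2, which rose by 0.93 ± 0.15, and Tnip3, which rose by 3.01 ± 0.29. Irak3, an inhibitory member of the IRAK family, rose by 4.93 ± 0.50, and by 3.83 in thinned libraries. Nlrc5, which had 2, 5 and 0 counts in the fl libraries, rose by 5.81 ± 0.41, and by 6.81 without fl replicate 2 and 8.28 in thinned libraries. Otud7b (93.2 ± 24.0 CPM in del, 87.9 ± 15.0 CPM in fl) and Tnip1 (66.4 ± 19.3 CPM in del, 54.7 ± 20.4 CPM in fl) did not pass (SD, n = 3 each), but Tnip1 did without fl replicate 1 (0.63, adjusted p = 0.0359).

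Of 10 tested receptor genes, 7 rose and 2 fell, with a median of 2.73. That is 90% called, against 65.1% of all tested genes. Cd79a and Cd79b, the signalling chains of the B cell receptor, were at 152 ± 10.6 and 171 ± 13.4 CPM in del and 8.12 ± 1.03 and 2.12 ± 0.465 CPM in fl (SD, n = 3 each), and both are also among the B cell markers. Tnfrsf13c, the BAFF receptor gene, rose by 3.65 ± 0.22 and Tlr9 by 4.81 ± 0.33 on the log2 scale (5.55 without fl replicate 3). Tlr7 had 134 counts in del and 0 in fl. Against a floor of 3 counts over the fl group it was 113.8-fold higher in del, and the exact 95% counting interval of the ratio began at 91.3. Outside the naming rule, Cd40 stood at 2.12 ± 1.66 CPM in del and 16.6 ± 0.595 CPM in fl (SD, n = 3 each), a fall of 2.80 (standard error 0.33; -3.44 as a log2 fold change without del replicate 3) opposite to the BAFF receptor gene. The other receptor gene that fell, also outside the rule, was Tnfrsf1a, which encodes TNF receptor 1. It was at 1.05 ± 0.574 CPM in del and 9.32 ± 0.234 CPM in fl (SD, n = 3 each). Its log2 fold change was -3.01 ± 0.31 (adjusted p = 3.56e-05). Tlr4 was at 16.6 ± 2.04 CPM in del and 13.0 ± 1.84 CPM in fl and did not pass.

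Textbook NF-kB target genes went both ways, with 11 of 25 higher, 8 lower and a median of 0.42. That is 76% called, against 65.1% of all tested genes. The chemokine gene Ccl4 had 433 counts in del and 3 in fl, a ratio of 368 in favour of del (exact 95% counting interval 125 to 1790), and Ccr7, a lymphoid homing receptor, 162 counts in del and 1 in fl (ratio 413, interval 73.0 to 16402.5). Ccl3 rose by 5.42 ± 0.29, the B cell factor gene Irf4 by 3.23 ± 0.20 and the cytokine gene Lta by 5.14 ± 0.37 on the log2 scale (3.93 in thinned libraries). The called genes that the naming rule picked here all rose. Outside that rule, the 8 that fell included Junb (log2 fold change -1.48 ± 0.15), Sod2 (-1.23 ± 0.13), Ltb (-3.07 ± 0.39) and Ccl5 (-3.81 ± 0.50). Tnf was at 33.9 ± 2.89 CPM in del and 37.0 ± 2.37 CPM in fl, and Irf1 at 28.3 ± 3.56 CPM in del and 26.2 ± 0.534 CPM in fl (SD, n = 3 each), neither past the threshold.

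**Figure D5:**
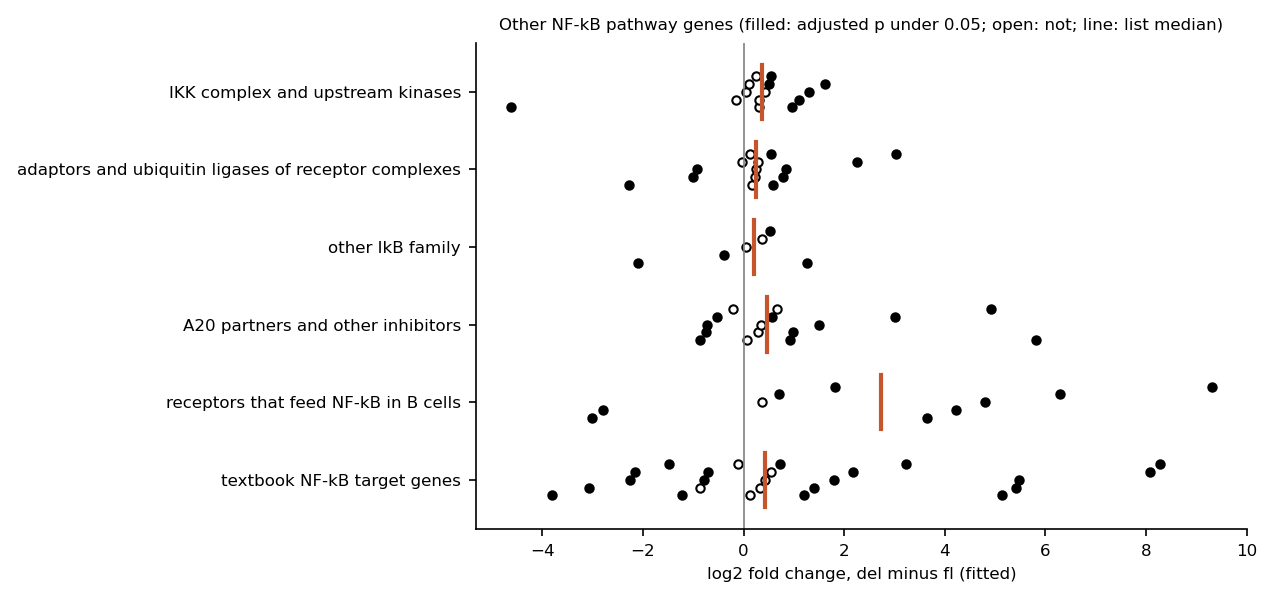
Fitted log2 fold change, del minus fl (x axis), of the tested genes in the 6 pathway lists (points, filled where adjusted p was under 0.05), with each list's median (line). Fitted values of genes with 0 to 3 counts in a group, such as Tlr7, depend on the prior count of the fit. The receptor list has its median at 2.73, and the other lists have medians between 0.21 and 0.46 with genes on both sides of 0.

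The gene whose centred log2 CPM over the 6 libraries was nearest to each of the 9 tested genes was sought among 6041 genes of at least 20 CPM. For Rel it was Milr1, with a root mean square difference of 0.070 on the log2 scale, and 44 genes lay within 0.2. For Traf1 it was Hspbap1 (0.16), with 9 genes within 0.2, and for Nfkbia it was Lrrc58 (0.10), with 27. For Cyld it was the survival gene Mcl1 (0.077, 48 genes within 0.2) and for Traf3 the mitochondrial enzyme gene Aldh2 (0.056, 110 genes). Nfkb1 and Rela, whose differences were small, had 741 and 543 genes within 0.2, with Psmf1 (0.018) and the beta-catenin gene Ctnnb1 (0.044) nearest. Tbp (0.083) was nearest to Nfkb2 and Sem1 (0.074) to Relb.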

How the data were processed

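Per the labels' protocols, RNA was reverse transcribed from oligo-dT primers carrying sample barcodes, and strand-specific 3' ends were sequenced. The authors deposited raw counts for each gene in 6 libraries. STAR, HTSeq and mm10 are named in the submitters' processing notes, without versions or a strand setting. Gene numbers were given symbols from the RefSeq table of GRCm38, which matched 23969 of 24052, and all 10 members were found.

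Counts were tested with edgeR 4.0.16 (R 4.3.3): filterByExpr by group, TMM factors, robust quasi-likelihood F test, Benjamini-Hochberg adjustment over all genes tested, threshold 0.05. Every adjusted p in the text comes from this test unless another is named. Standard errors derive from the F statistic. Depth and precision stand beside the values. The test was run on simulated counts with 200 changed genes. In these data 6676 genes were called, so that the simulation does not cover differences this widespread. Seed matches were read from GENCODE M21 transcripts.

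Named genes were all 10 members, up to 5 called genes per list by smallest adjusted p, up to 2 not called by highest CPM, and the nearest gene in pattern. Members and lists were chosen with earlier results of these data known. Alternatives were RLE and upper-quartile factors, DESeq2 1.42.0, no count filter, at least 10 CPM in 3 libraries, libraries thinned to 2121796 counts, the replicate number as a block, and leaving out each library.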

Additional observations from a re-analysis of the deposited data

How the results depend on the processing

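Rel, Nfkbia, Cyld, Traf3 and Traf1 kept their direction and their call under all 13 alternatives, with log2 fold changes of 1.596 to 1.95, 0.94 to 1.55, 0.67 to 1.09, 0.93 to 1.27 and -3.49 to -3.27. The count of higher members was 4 throughout. That of lower members was 2 with DESeq2, RLE factors and the replicate block and 2 to 3 when 1 library was left out. It was 3 with no count filter and with the stricter filter, 1 in thinned libraries, where Nfkb2 missed the threshold (-0.62, adjusted p = 0.0584), and 4 with upper-quartile factors, where Nfkb1 (-0.47) and Relb (-0.65) passed. Those factors moved the median of all genes by -0.13. Relb also passed with no count filter (-0.58) and with the stricter filter of 10 CPM in 3 libraries (-0.53). Leaving out 1 library gave -0.43 to -0.26 for Nfkb1, -0.64 to -0.35 for Relb and -0.085 to 0.16 for Rela. Rela was -0.0098 with no count filter and -0.094 with upper-quartile factors.

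Same-numbered del and fl libraries correlated at 0.083, -0.039 and -0.020 in their deviations from the group means, so the numbers were not taken as pairs. With the replicate block, 4 members rose and 2 fell, as without it, and over the pathway lists 39 rose and 17 fell. Among named pathway genes that did not pass, some changed sign, all with an adjusted p above 0.05: Chuk (0.050 without fl replicate 1), Irak1 (-0.018), Irf1 (-0.0094), Nfkbid (-0.077) and Otud7b (-0.048) with upper-quartile factors, and when 1 library was left out Irf1 (-0.0023 to 0.19), Nfkbid (-0.059 to 0.11) and Otud7b (-0.15 to 0.19). Over the pathway lists, 31 to 41 genes rose and 15 to 21 fell. The lower depth of the del libraries limits what can be said of Tnfaip3 and Map3k8. The causes of these changes were not tested.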
